A study of Danio rerio with 6 samples.

Results

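The genes described here are those that build the mechanotransduction apparatus and the synapse of hair cells, the mechanosensory cells of the inner ear and the lateral line. They were the gene entries named *otofa*, *otofb*, *myo7aa*, *cdh23*, *pcdh15a*, *tmc1*, *tmc2a*, *tmc2b*, *slc17a8* and *pvalb9*. All 10 names were found among 32520 listed entries, as 11 entries, because *cdh23* is listed under 2 Ensembl identifiers. *tmc1* is listed in capitals as *TMC1*. RNA was sequenced from dissected heads of AB-strain zebrafish larvae at 4 days post-fertilization (dpf), with 3 wt samples and 3 *tulp1*-dKO samples. The *tulp1*-dKO zebrafish carry frameshift mutations in both *tulp1a* and *tulp1b*, made with CRISPR-Cas9 and combined by crossing 1 mutant line for each gene. The labels give neither the number of heads in a sample nor whether the samples of a group came from separate clutches, so p-values measure the spread between these samples, which may be partly technical. The study examined *tulp1*-dKO zebrafish for photoreceptor degeneration, shortened photoreceptor cilia and signs of ferroptosis, and used the RNA data to look for the mechanism. Hair cells serve here as another sensory cell of the same heads.

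A hair cell carries a bundle of actin-filled stereocilia on its apical surface. Fine extracellular tip links, made of cadherin 23 at the upper end and protocadherin 15 at the lower end, join neighbouring stereocilia and pull on channels formed by Tmc proteins when the bundle is deflected. The cell then depolarizes, and calcium entry at its base releases glutamate from ribbon synapses, which resemble those of photoreceptors. At larval stages the head of a zebrafish holds the hair cells of the inner ear and of the cranial neuromasts, a small share of all cells. Zebrafish carry duplicates of many of these genes.

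The values are TPM, which corrects for gene length, so that levels may be compared between genes, but keeps no sequencing depth. How many reads a value rests on is therefore not known, and errors are given as the SD over each group's samples. The listed values of a sample summed to 945666 to 948860 TPM, and 25096 to 25304 entries were above 0. The targeted genes followed the labels, with *tulp1a* at 23.74 to 25.34 TPM in the wt heads against 14.35 to 16.01 TPM in the *tulp1*-dKO heads, and *tulp1b* at 9.77 to 13.12 TPM and 2.01 to 2.71 TPM. Differences were tested with limma on log2(TPM + 0.1) over 22824 entries, those that averaged 0.5 TPM or more, and p-values were adjusted over all of them by the method of Benjamini and Hochberg. Called genes are those with an adjusted p no higher than 0.05 and a difference of 2-fold or more. Because of the added 0.1, differences of genes with low TPM come out too small on this log2 scale.

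Of the 10 hair cell entries tested, none was called in either direction by limma, where 0.96% of all genes tested were called lower and 0.364% higher, 1.32% in all. One gene, the tip link cadherin *cdh23*, had an adjusted p of at most 0.05 with a fold change under 2, and was lower in *tulp1*-dKO zebrafish. At that adjusted p without a minimum fold change, 1.22% of all genes tested were lower and 0.67% higher, 1.89% in all. The same gene was the only one of the 10 with an unadjusted p up to 0.05, against 17.1% of all genes tested. Its groups did not overlap, whereas those of the other 9 tested entries did, and 23.5% of all genes tested had groups that did not overlap, 8.86% with the *tulp1*-dKO samples lower and 14.6% with them higher. Over the 10 entries, 7 estimates were below 0 and 3 above, with a median log2 fold change of −0.17 beside 0.05 for all genes tested.

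**Figure D1:**
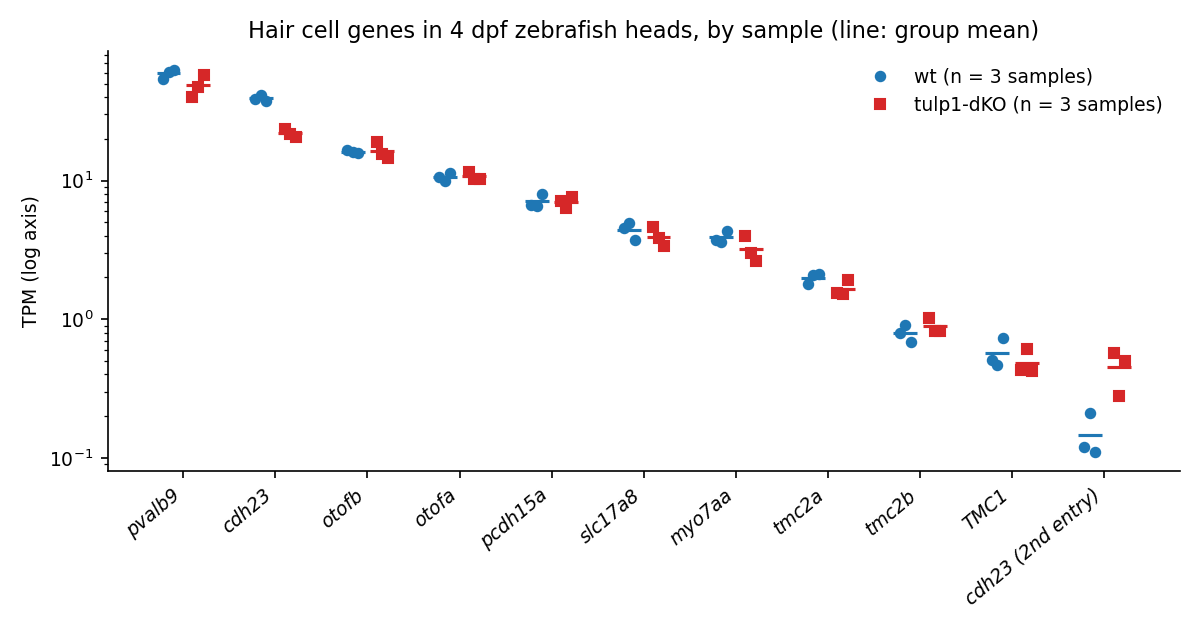
TPM (log axis) of each hair cell gene in each sample, with wt as blue circles, *tulp1*-dKO as red squares and a line at each group mean of 3 samples. The values of *cdh23* separate between the groups (37.40 to 41.28 TPM against 20.76 to 23.43 TPM), as do those of its low second entry in the opposite direction, while the symbols of the other genes overlap.

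In wt heads the levels spanned from 59.4 ± 4.45 TPM for *pvalb9* (mean ± SD, n = 3 samples) to 0.57 ± 0.14 TPM for *TMC1*, leaving aside the second *cdh23* entry. *pvalb9* and *cdh23* stood at the top, the 2 otoferlins followed, and the 3 channel genes stood at the bottom. In this order, from *pvalb9* through *cdh23*, *otofb*, *otofa*, *pcdh15a*, *slc17a8*, *myo7aa*, *tmc2a* and *tmc2b* to *TMC1*, the wt ranges of neighbours were separate except for *slc17a8* with *myo7aa* and *tmc2b* with *TMC1*. The median coefficient of variation of the 10 tested entries across wt samples was 9.67%.

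Tip links were represented by 2 genes with different values. *cdh23* (ENSDARG00000007561), the upper part of the link, was at 38.87, 41.28 and 37.40 TPM in wt samples 1, 2 and 3. The *tulp1*-dKO samples 1, 2 and 3 had 23.43, 21.71 and 20.76 TPM. Every *tulp1*-dKO sample lay below every wt sample, at 0.561 times the wt level in the fit (log2 fold change −0.83, SE 0.09, 95% interval −1.05 to −0.62, limma, Benjamini-Hochberg adjusted p = 0.00874). In bulk tissue, fewer cells that express a gene and less of its RNA per cell cannot be told apart. The log2 fold change of *cdh23* stayed between −0.88 and −0.79 over 16 alternatives, and limma's adjusted p, between 0.00574 and 0.0644, did not exceed 0.05 in 12 of them. Of the 4 alternatives above 0.05, 3 left out a sample, with an adjusted p of 0.0644 without wt sample 1, 0.0555 without wt sample 2 and 0.0577 without *tulp1*-dKO sample 2, and the other took the replicate number as a block.

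*cdh23* is also listed under a second identifier (ENSDARG00000094454), at 0.12, 0.21 and 0.11 TPM in the wt heads against 0.57, 0.28 and 0.50 TPM in the *tulp1*-dKO heads. These values, under the minimum for testing, were higher in all 3 *tulp1*-dKO samples than in any wt sample. The 2 entries bear one name and a division of reads between them was not measured. The second entry held 0.29% to 0.51% of their summed TPM in wt and 1.27% to 2.37% in *tulp1*-dKO zebrafish. Their sum was 38.99, 41.49 and 37.51 TPM in the wt heads against 24.00, 21.99 and 21.26 TPM in the *tulp1*-dKO heads. Summed over entries of the same name, *cdh23* had a log2 fold change of −0.81 (adjusted p = 0.0108 from limma).

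*cdh23* transcripts are known from the retina as well as from hair cells. In the same heads the summed TPM of 41 listed photoreceptor entries was 17521.4 to 17906.1 in wt and 3866.7 to 6663.3 in *tulp1*-dKO zebrafish, and 32 of the 41 had every *tulp1*-dKO sample below every wt sample, as 8.86% of all genes tested had. All 41 were above 0 in all 6 samples. Which cells of the heads held the RNA of *cdh23*, or of the other members, was not measured, so no member's values can be read as those of hair cells alone. The part of photoreceptors, of other retinal cells or of brain in the difference of *cdh23* was not tested.

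The other tip link gene, *pcdh15a* (ENSDARG00000098257), encodes the lower part of the link, which binds to the transduction complex. It was at 6.64, 6.57 and 8.02 TPM in the wt heads against 7.16, 6.32 and 7.61 TPM in the *tulp1*-dKO heads. The values interleaved, with a log2 fold change of −0.01 (SE 0.14, 95% interval −0.34 to 0.32, adjusted p = 0.987 from limma). The interval leaves out a loss of the size estimated for *cdh23*.

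The transduction channel genes were the lowest of the set. *tmc2a* (ENSDARG00000033104) was at 1.79, 2.08 and 2.11 TPM in the wt heads against 1.55, 1.51 and 1.93 TPM in the *tulp1*-dKO heads, with only *tulp1*-dKO sample 3 inside the wt range. *tmc2b* (ENSDARG00000030311), its duplicate, was at 0.80, 0.91 and 0.69 TPM in the wt heads against 1.02, 0.82 and 0.82 TPM in the *tulp1*-dKO heads, overlapping ranges with a mean that was higher in the mutant heads. *TMC1* (ENSDARG00000056386), which follows *tmc2b* directly among the protein-coding genes of RefSeq's zebrafish table of assembly GRCz12tu, was at 0.51, 0.47 and 0.73 TPM in wt. The *tulp1*-dKO heads had 0.43, 0.61 and 0.42 TPM, again with overlap.

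For these 3 channel genes the log2 fold changes were −0.25 (95% interval −0.76 to 0.25), 0.13 (−0.64 to 0.91) and −0.19 (−1.26 to 0.89), with adjusted p of 0.613, 0.881 and 0.88 from limma. At these levels the interval of *TMC1* leaves room for a 2-fold loss, and no difference was detectable. Reads may be shared among these related genes, which was not measured.

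*myo7aa* (ENSDARG00000099871) encodes myosin VIIA, the motor at the upper tip link density whose human counterpart is an Usher syndrome gene. It was at 3.74, 3.59 and 4.36 TPM in the wt heads against 3.98, 2.98 and 2.63 TPM in the *tulp1*-dKO heads. *tulp1*-dKO samples 2 and 3 were below all wt samples and sample 1 was within their range, with a log2 fold change of −0.29 (SE 0.20, 95% interval −0.76 to 0.17, adjusted p = 0.515 from limma). Without *tulp1*-dKO sample 1, and without each other sample in turn, its log2 fold change lay between −0.46 and −0.17.

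**Figure D2:**
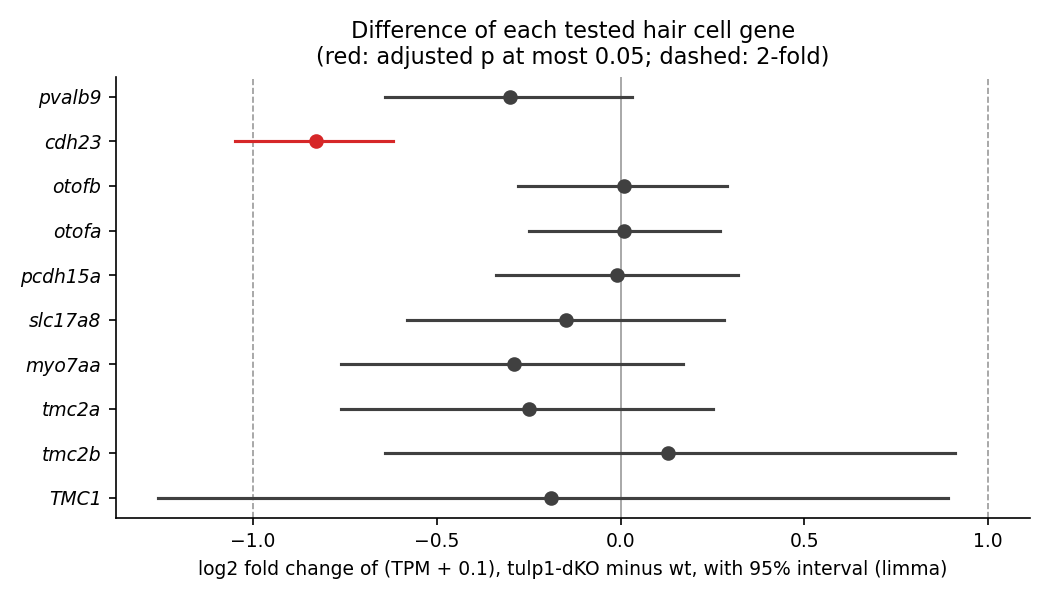
Log2 fold change of (TPM + 0.1), *tulp1*-dKO minus wt, for the 10 tested hair cell entries, with limma's 95% intervals from 3 samples in each group and dashed lines at a 2-fold difference. *cdh23*, in red, is the only one with an adjusted p of at most 0.05, and the intervals of the other 9 include 0.

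Of the 3 synapse genes, none had groups that separated. *otofa* (ENSDARG00000030832) and *otofb* (ENSDARG00000020581) encode otoferlins, the calcium sensors of vesicle release in hair cells. *otofa* was at 10.57, 9.96 and 11.35 TPM in the wt heads against 11.56, 10.30 and 10.27 TPM in the *tulp1*-dKO heads. *otofb* was at 16.60, 16.01 and 15.92 TPM in the wt heads against 18.88, 15.68 and 14.57 TPM in the *tulp1*-dKO heads. The mutant samples of *otofb* spread around the narrow wt range, with sample 1 above it and samples 2 and 3 below.

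Both otoferlins had a log2 fold change of 0.01, with 95% intervals of −0.25 to 0.27 for *otofa* and −0.28 to 0.29 for *otofb* (adjusted p = 0.975 and 0.981 from limma), and both estimates turned to −0.04 with median ratio scaling. *slc17a8* (ENSDARG00000057728) encodes Vglut3, the transporter that loads hair cell vesicles with glutamate. It was at 4.58, 4.92 and 3.70 TPM in the wt heads against 4.60, 3.86 and 3.38 TPM in the *tulp1*-dKO heads. The ranges overlapped, with a log2 fold change of −0.15 (SE 0.18, 95% interval −0.58 to 0.28, adjusted p = 0.724 from limma).

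*pvalb9* (ENSDARG00000071601), a parvalbumin that buffers calcium, was the most abundant of the set. It was at 54.43, 60.93 and 62.94 TPM in the wt heads against 40.27, 47.62 and 58.11 TPM in the *tulp1*-dKO heads. *tulp1*-dKO samples 1 and 2 lay below the wt range and sample 3 inside it, with a log2 fold change of −0.30 (SE 0.14, 95% interval −0.64 to 0.03, adjusted p = 0.345 from limma). Without one sample at a time it lay between −0.44 and −0.17.

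The summed TPM of the 11 entries was 138.65, 146.93 and 147.33 in wt and 113.45, 111.69 and 121.00 in *tulp1*-dKO zebrafish. Every *tulp1*-dKO sum lay below every wt sum. Without the *cdh23* entries the sums were 99.66, 105.44 and 109.82 TPM in wt samples and 89.45, 89.70 and 99.74 TPM in mutant samples, where the highest mutant sum just passed the lowest wt sum. Without *pvalb9* as well, the sum was 44.51 to 46.88 TPM in the wt heads against 41.63 to 49.18 TPM in the *tulp1*-dKO heads, ranges that overlapped. The 95% interval lay within a 2-fold difference in either direction for 8 of the 10 tested entries, all but *cdh23* and *TMC1*, as it did for 73.8% of all genes tested.

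Hair cell genes were next compared with a duplicate or with a gene of the same role listed for the photoreceptor synapse. The log2 ratios were taken within each sample, for 7 pairs. With 3 samples in each group, the two-sided exact permutation test cannot give a p below 0.1, so no pair could pass 0.05. *myo7aa* was above its duplicate *myo7ab* in every wt sample, with log2 ratios of 0.15, 0.04 and 0.07, and below it in *tulp1*-dKO zebrafish, at −0.13, −0.24 and −0.25. The groups did not overlap, and the difference of −0.29 (SE 0.05) gave p = 0.1, the smallest the exact permutation test allows, or 0.35 adjusted over the 7 pairs. *myo7ab* itself had 3.37, 3.48 and 4.14 TPM in wt samples and 4.35, 3.55 and 3.14 TPM in mutant samples, with overlap (log2 fold change 0.00, limma adjusted p = 1).

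*myo6b*, the myosin VI duplicate known for its role in zebrafish hair cells, was lower relative to *myo6a* in every *tulp1*-dKO sample. The log2 ratios were −0.55, −0.74 and −0.59 in wt and −0.74, −0.85 and −0.87 in *tulp1*-dKO zebrafish, without overlap before rounding (difference −0.20, SE 0.07, exact permutation p = 0.1, adjusted 0.35). *myo6b* itself was at 13.1 ± 0.726 TPM in the wt heads against 14.2 ± 1.57 TPM in the *tulp1*-dKO heads (n = 3 each), and *myo6a* at 20.2 ± 0.764 TPM and 25 ± 1.45 TPM, and the log2 fold changes were 0.11 for *myo6b* (limma, adjusted p = 0.694) and 0.30 for *myo6a* (adjusted p = 0.163).

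The otoferlins had the same mean ratio in both groups, with log2 *otofa*/*otofb* at −0.60 ± 0.10 in wt and −0.60 ± 0.10 in the *tulp1*-dKO heads (mean ± SD, n = 3 samples each, exact permutation p = 1). For *slc17a8* against *slc17a7a*, a Vglut1 gene of retina and brain, the log2 ratio was −3.67 ± 0.18 in wt and −3.54 ± 0.09 in *tulp1*-dKO zebrafish, with an exact permutation p of 0.4. *slc17a7a* was at 55.94, 58.61 and 55.35 TPM in the wt heads against 51.43, 45.76 and 43.25 TPM in the *tulp1*-dKO heads, without overlap (log2 fold change −0.28, adjusted p = 0.189 from limma). The calcium channel gene *cacna1da*, required at zebrafish hair cell synapses, was set against *cacna1fb*, which was listed here with the photoreceptor synapse genes. Which cells of the heads expressed *cacna1fb* was not measured. The log2 ratios were −0.45 to 0.21 in wt and −0.84 to −0.18 in *tulp1*-dKO zebrafish, with overlap (exact permutation p = 0.2). *cacna1da* alone was lower in all mutant samples, at 9.80 to 11.11 TPM beside 11.21 to 12.12 TPM in wt samples, with a log2 fold change of −0.14 that did not pass the test (limma adjusted p = 0.562). *cacna1fb* had a log2 fold change of 0.29 and its duplicate *cacna1fa* one of −0.30 (limma adjusted p = 0.563 and 0.391). *slc17a7b*, the duplicate of *slc17a7a*, had one of 0.32 (limma adjusted p = 0.285). These duplicates were named after their values were seen, and ratios with them were not computed. The ratios *pcdh15a*/*pcdh15b* and *tmc2b*/*tmc2a* also overlapped between the groups, with exact permutation p of 0.4 and 0.3.

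**Figure D3:**
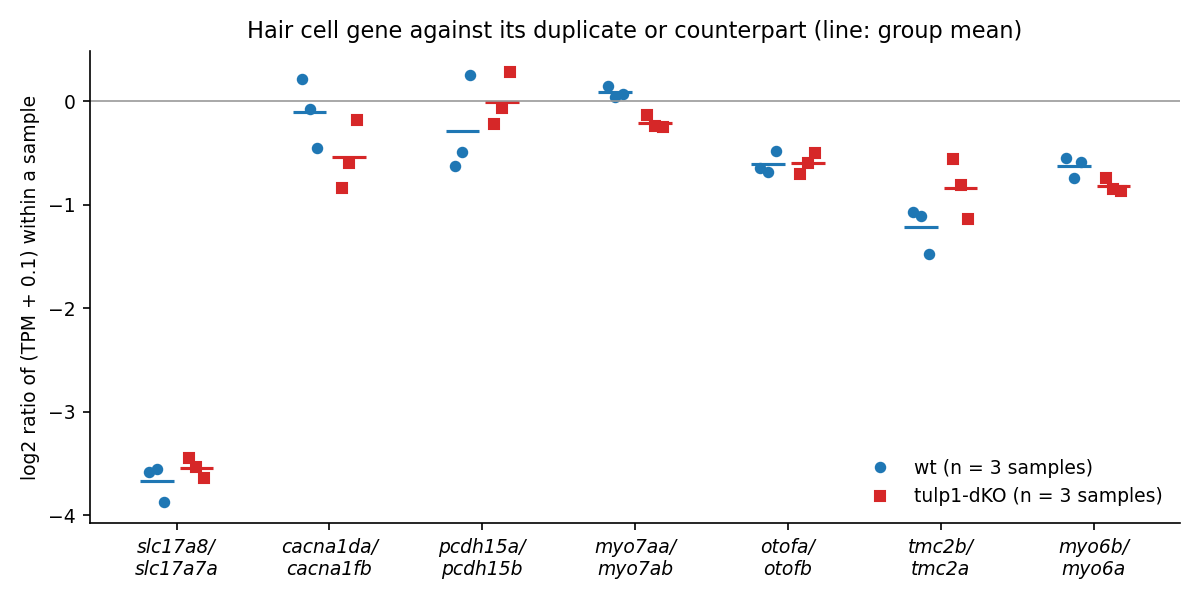
Log2 ratio of (TPM + 0.1) between the genes of each of 7 pairs within each sample, with wt as blue circles, *tulp1*-dKO as red squares and a line at each group mean of 3 samples. The groups separate for *myo7aa*/*myo7ab* (difference −0.29) and overlap for 5 pairs. For *myo6b*/*myo6a* (difference −0.20) they separate only before rounding, as wt sample 2 and *tulp1*-dKO sample 1 both round to −0.74.

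A wider list of hair cell genes, written from general knowledge, held 79 names, of which 72 were found, as 76 entries, and 73 entries were tested. One was called lower by limma and none higher, against 0.96% and 0.364% of all genes tested. By unadjusted p up to 0.05, 6 entries were lower and 2 higher, against 6.97% and 10.1% of all genes tested. The list had a median log2 fold change of −0.04, with 38 entries below 0 and 35 above, beside a median of 0.05 for all genes tested.

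The called gene was *fscn2a* (ENSDARG00000059574), a fascin that bundles actin. Its mouse counterpart is known from both photoreceptors and hair cell stereocilia. Bulk heads do not show which cells expressed the zebrafish gene, so its place on the list does not make it a hair cell difference. *fscn2a* was at 9.36, 8.13 and 8.36 TPM in wt and fell to 5.02, 3.12 and 3.08 TPM in *tulp1*-dKO zebrafish, 0.43 times the wt level (log2 fold change −1.22, SE 0.21, limma adjusted p = 0.0394). Its adjusted p was at most 0.05 in 8 of 16 alternatives and between 0.0208 and 0.171, and leaving out any sample but *tulp1*-dKO sample 1 ended the call. The fall of the photoreceptor list in the same libraries, given above with *cdh23*, stands beside it, and its part in the result was not tested. The duplicate *fscn2b*, named after its values were seen, was at 12.95, 12.53 and 19.46 TPM in the wt heads against 18.77, 17.65 and 12.08 TPM in the *tulp1*-dKO heads, with overlap (log2 fold change 0.11, adjusted p = 0.85 from limma).

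By role, the 7 tested entries of the transduction complex had a median log2 fold change of 0.22. Among them were *tmie* and the *lhfpl5* genes (named after their values were seen), whose products belong to the channel complex. *lhfpl5a* was at −0.43 and *lhfpl5b* at 0.53, the latter without overlap. The median coefficient of variation of these entries across wt samples was 34.6%, beside 12.7% for all genes tested. Limma's interval lay within a 2-fold difference for 42.9% of them, beside 73.8% of all genes tested. None of the 7 had an unadjusted p of 0.05 or less, which says little at that spread. None of the 13 tested entries for Usher proteins, stereociliary links and other bundle proteins, with a median of 0.13, and none of the 10 transcription factor entries, with a median of 0.10, had such a p either. Among the latter, *pou4f3*, named after its values were seen and a factor that hair cells need to survive, was at 6.99, 8.59 and 9.38 TPM in the wt heads against 8.74, 7.68 and 6.72 TPM in the *tulp1*-dKO heads. Of the 14 ribbon synapse entries 3 were lower at an unadjusted p up to 0.05, and of the 14 bundle motor and actin entries 2 were lower and 1 higher. Of the 9 calcium handling and ion channel entries 1 was lower, and of the 5 entries for other hair cell genes 1 was higher. The 1 efferent receptor entry had no such p. Of all genes tested, 6.97% were lower and 10.1% higher at that p.

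The next smallest p after *fscn2a*, in genes named after their values were seen, belonged to *myo3a*, a myosin of stereociliary tips that photoreceptors also use. It was at 5.70, 5.95 and 5.22 TPM in the wt heads against 3.42, 3.73 and 3.29 TPM in the *tulp1*-dKO heads, without overlap (log2 fold change −0.68, SE 0.14, limma adjusted p = 0.0624). *kcnn2*, a calcium-activated potassium channel of hair cells and neurons, was at 15.27, 13.18 and 14.41 TPM in wt samples and 9.97, 8.98 and 10.25 TPM in mutant samples (log2 fold change −0.55, adjusted p = 0.0652 from limma). *cplx4a*, a complexin of retinal ribbon synapses that the list counts with its ribbon synapse entries, was at 97.81, 87.65 and 108.88 TPM in wt samples and 71.66, 65.04 and 48.70 TPM in mutant samples (log2 fold change −0.68, adjusted p = 0.0908 from limma). Each of these 3 was lower in all *tulp1*-dKO samples than in all wt samples, and none passed the adjusted threshold. Bulk heads do not show which cells expressed them, so their place on the list does not make them hair cell differences. They were picked by p, and the list as a whole went both ways. Of its 73 tested entries, 7 were lower without overlap and 6 were higher without overlap. Of all genes tested, 8.86% were lower without overlap and 14.6% higher.

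In the list, 38 of the 76 entries had been marked from general knowledge as also used in retina or brain. The lists were chosen with earlier results of these data known, so the list and its marks may not be independent of the values. Of the 38 tested entries so marked, 1 was called, beside 1.32% of all genes tested. In 9 the groups did not overlap, beside 23.5% of all genes tested, so with both directions together that count was near the background. Of these 9, 6 were lower and 3 higher, where 8.86% of all genes tested were lower without overlap and 14.6% higher. By limma's unadjusted p up to 0.05, 5 marked entries were lower and 1 higher. Of the 35 tested entries not so marked, none was called, and 4 had groups that did not overlap, 1 lower and 3 higher. At an unadjusted p up to 0.05 in limma, 1 of the unmarked entries was lower and 1 higher. At that p, 6.97% of all genes tested were lower and 10.1% higher. The lower entry was *kcnn2*, left unmarked although it is described above as a channel of neurons too, so the marking is incomplete. The unmarked entries had a median wt level of 4.95 TPM and a median coefficient of variation across wt samples of 19.6%. The marked entries had 10.7 TPM and 12.4%. Limma's interval lay within a 2-fold difference in either direction for 57.1% of the unmarked and 81.6% of the marked entries. A difference was thus harder to detect among the unmarked entries, and their lack of calls cannot be read as a contrast. The difference between the 2 subsets was not tested.

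The medians of other lists from the same heads are given as a scale. Genes listed for the otoliths and the otic epithelium around hair cells had a median log2 fold change of 0.02 over 14 tested entries, 6 below 0 and 8 above. None was called by limma, and 2 were lower at an unadjusted p up to 0.05, *stm* (−0.22) and *tectb* (−0.40), both without overlap. The list's summed TPM of 2043.0 to 2348.1 in wt overlapped with that of 1949.9 to 2406.0 in *tulp1*-dKO zebrafish. Most of that sum came from *col2a1a* and *sparc*, at wt means of 846 and 835 TPM, so it says little about the other entries. These 4 genes were named after their values were seen. Which cells of the heads expressed the genes of this list was not measured, so it does not stand for the ear alone. The 31 rod and cone entries had a median of −1.44, with 20 called, all lower, where 0.96% of all genes tested were called lower. The 10 photoreceptor synapse entries had a median of −0.11, and none was called, with 4 lower and 2 higher at an unadjusted p up to 0.05. At that p, 6.97% of all genes tested were lower and 10.1% higher. Transcripts of tissues at the edge of a head dissection were present in both groups, with exocrine pancreas genes at 945.2 to 1562.8 TPM in the wt heads against 884.6 to 4538.7 TPM in the *tulp1*-dKO heads, and skeletal muscle genes at 11815.3 to 12705.9 TPM and 13318.9 to 14241.3 TPM. Their part in the hair cell values was not tested.

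**Figure D4:**
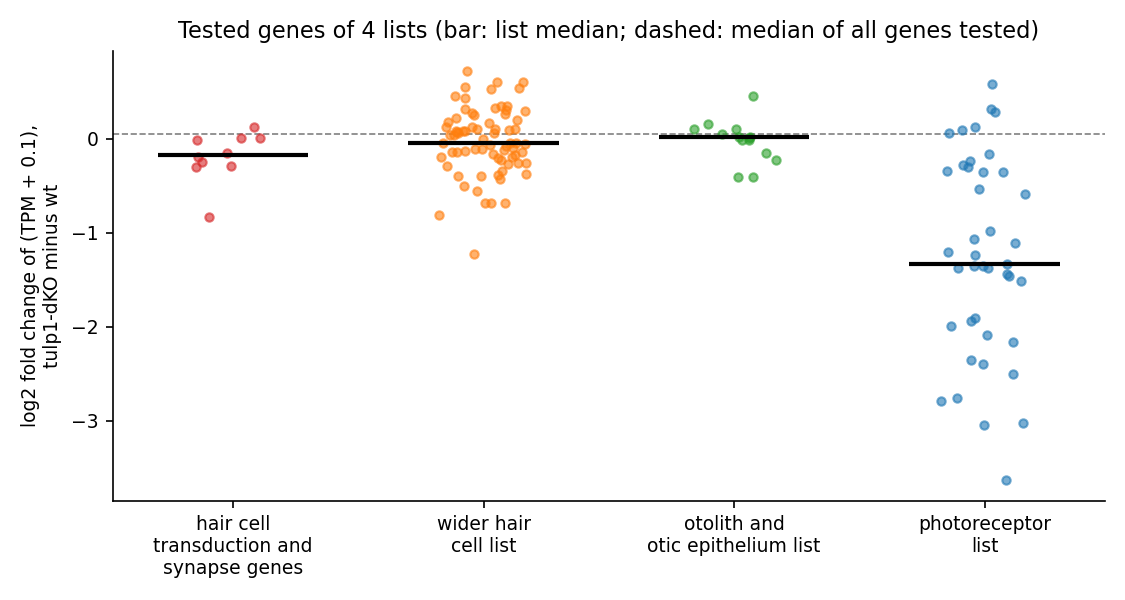
Log2 fold change of (TPM + 0.1), *tulp1*-dKO minus wt, of every tested entry of 4 lists, with a bar at each list's median and a dashed line at the median of all genes tested (0.05). The medians are −0.17 for the hair cell entries, −0.04 for the wider list and 0.02 for the otolith and otic epithelium list. The photoreceptor list, with its synapse genes, has a median of −1.33. All 4 lists span 0, the photoreceptor list with 35 entries below and 6 above.

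Across the 6 samples, the mean z-score of the 10 tested entries was 0.10, 0.23 and 0.56 in wt and 0.20, −0.57 and −0.52 in *tulp1*-dKO zebrafish, so that *tulp1*-dKO sample 1 stood among the wt samples. The 5 other genes whose log2 values followed this score most closely were *map7d2b*, *CU467861.7*, *snap25b*, *RIMS2* and *midn*, with Pearson's r of 0.990, 0.988, 0.987, 0.986 and 0.985 over 6 samples. With 6 points that share their libraries, 74 of the genes tested had an r above 0.95, so the order is a description only.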

How the data were processed

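Per the methods of the study and the submitters' processing notes, the authors mapped reads to GRCz11 with HISAT2 (version not given in the sources used here), obtained gene counts with RSEM, and converted these to the deposited TPM, 1 file for each of 6 samples. The DESeq2 test of the authors was not run, since it takes counts. Members were matched by listed name, 3 names of all lists only without regard to case. The 1309 entries that share a name were kept apart. Log2(TPM + 0.1) entered a limma fit (version 3.58.1, R 4.3.3, eBayes with an intensity trend) over 22824 entries with a mean of at least 0.5 TPM. Checks were run on simulated data. Ratios used scipy 1.17.1, tables pandas 2.3.3, figures matplotlib 3.10.9, under Python 3.11.15. TPM keeps no depth, so counting error is unknown.

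The genes, lists and tests were chosen with earlier results of these data known. Named are the members, the genes of 7 pairs, the targeted genes, called genes of the wider list and the 5 genes most like the members; others are said to be named after their values were seen. Alternatives covered the pseudocount, filter, scaling, variance model, replicate block, summed entries, thresholds and each sample left out. Lists covered hair cells, the otic epithelium, photoreceptors, muscle, erythrocytes, exocrine pancreas, liver and lens. Deviations of same-numbered samples correlated at 0.029, 0.031 and 0.032 across genes and those of other pairs at −0.021 to −0.01. The shared deviation was too weak to take the numbers as pairs. No sequence was shown, and no coordinates are given because the gene table used for names (GRCz12tu) is of another assembly.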

Additional observations from a re-analysis of the deposited data

How the results depend on the processing

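The count of 0 called among the hair cell entries held under every alternative fit, and became 1, *cdh23*, without a minimum fold change. For the wider list, the count of 1 became 0 with no filter on low values, with eBayes without trend and with the replicate block. In an alternative chosen after seeing the data, without genes marked as also used in retina or brain, it was 0 as well. With one sample left out the count was 0 to 1. Near-zero estimates changed sign: *otofb* was −0.04 with median ratio scaling and −0.03 with quantile normalization, *otofa* −0.04 and −0.04, and *myo7ab* 0.00 at pseudocounts of 0.5 and 1. With one sample left out, log2 fold changes ranged from −0.10 to 0.09 for *otofb*, −0.04 to 0.06 for *otofa*, −0.07 to 0.08 for *pcdh15a* and −0.12 to 0.10 for *myo7ab*, and the *otofa*/*otofb* difference from −0.05 to 0.06. The causes were not tested.

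With the replicate number as a block, *cdh23* kept its log2 fold change of −0.83 with an adjusted p of 0.0605, and the count over all genes fell from 302 to 134; the samples share only a number, although every sample correlated best with its own. That count was 99 to 226 with one sample left out and 950 by unadjusted p with the same fold change. Every other member stayed above an adjusted p of 0.05 in all its alternatives. Depth is unknown, which limits the reading of *TMC1*, *tmc2b* and the second *cdh23* entry most.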

Other observations

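Of the lists fixed to gauge other cells of the head, 8 erythrocyte entries (median log2 fold change −0.16), 13 liver entries (−0.12) and 14 lens entries (−0.02) had no gene called by limma, and at an unadjusted p of 0.05 or less they held 0, 0 and 1 genes. The 13 exocrine pancreas entries were all above 0, with a median of 0.90, none called and 3 at an unadjusted p up to 0.05, and the 18 skeletal muscle entries had a median of 0.14, none called, with 6 higher and 1 lower at that p. Of all genes tested, 6.97% were lower and 10.1% higher at that p.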
